A study of Mus musculus with 8 samples.

Results

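The comparison of Brd9 knockdown with scramble in proliferating C2C12 cells rests on 4 of the 8 libraries of the study, 2 with an shRNA against Brd9 and 2 with a scramble control shRNA. They were chosen by their labels alone, and no measured value entered the choice. C2C12 is an established mouse myoblast line that grows as muscle precursors in serum. All groups were grown below confluence in medium with serum, carried a lentiviral short hairpin RNA (shRNA), were transduced with 8 µg/ml polybrene, were selected in 2 µg/ml puromycin and were then kept in 1 µg/ml puromycin. The other 4 libraries carry shRNAs against Baf250A (Arid1a) and Baf180 (Pbrm1), 2 each, and entered the same fit to estimate the spread. The labels speak of Brd9 shRNAs, but the titles of both Brd9 libraries carry the same tag, s39, which may stand for 1 hairpin, so what belongs to the target and what belongs to the hairpin cannot be told apart. Separate cultures for the 2 libraries of a group are not stated, so the p-values cover no more than the differences among these libraries, and those may be technical. Estimated counts totalled between 17763076 and 18575488 in the 4 libraries, and 12420 genes had enough counts to be tested.

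BRD9 is a bromodomain protein, a reader of acetylated lysine, and a defining subunit of non-canonical BAF (ncBAF), the smallest form of the SWI/SNF family of chromatin remodellers. SWI/SNF complexes use an ATPase, BRG1 (Smarca4) or BRM (Smarca2), to move nucleosomes, and each form adds its own subunits to a shared core. In myoblasts SWI/SNF complexes are known as partners of the myogenic factor MyoD, which opens muscle genes when the cells leave the cell cycle.

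Brd9 itself fell. Its level was 40.3 and 36.8 CPM (counts scaled to library size by TMM) in the scramble libraries and 7.61 and 7.07 CPM in the Brd9 libraries, a log2 fold change of -2.39 ± 0.16 (standard error) at an adjusted p of 7.48e-05. The libraries of each group lay close together and far from those of the other group. Here and below a gene is called when its p from edgeR's quasi-likelihood test, adjusted by Benjamini-Hochberg over all 12420 tested genes, is under 0.05, and ± after a log2 fold change is its standard error. The gene lies on chromosome 13 from 73937801 to 73960895 (GRCm38).

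The transcripts of the other SWI/SNF subunits were mostly not called. Among 27 tested subunits, 2 rose, Brd9 fell and 24 were not called, against 10.0% of all tested genes called in either direction. Bicral, a paralog of the ncBAF scaffold gene Bicra, rose from 14.4 and 12.9 CPM to 25.8 and 21.8 CPM (log2 0.80 ± 0.21, adjusted p = 0.0444). Smarca2, which encodes the alternative ATPase BRM, rose from 11.5 and 10.5 CPM to 23.9 and 17.8 CPM (0.92 ± 0.22, adjusted p = 0.0341). Smarca4, which encodes BRG1, was at 564 and 576 CPM in scramble and 402 and 513 CPM in the Brd9 libraries (-0.32 ± 0.16, adjusted p = 0.207). The targets of the other hairpins were not called either, with 0.12 ± 0.12 for Arid1a and 0.15 ± 0.23 for Pbrm1, and Bicra stood at 0.18 ± 0.18. The calls of Bicral and Smarca2 ended when single libraries were left out, with adjusted p up to 0.255 and 0.237.

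Across all tested genes, 801 were called higher (6.45%) and 443 lower (3.57%), and 3769 had an unadjusted p under 0.05. For comparison, both Brd9 libraries lay beyond both scramble libraries in 8071 genes (65.0%), so separation of 2 libraries from 2 is common here and says little about a single gene. With DESeq2 1714 genes were called and the share of higher ones was 52.4%, against 64.4%. Rises were larger than falls in the median: the median log2 fold change was 1.14 among higher genes and -0.77 among lower ones, and 154 genes rose 4-fold or more while 30 fell as far. The genes that rose had a median of 15.9 CPM and those that fell a median of 57.6 CPM. The count depends on single libraries. It was 358 without scramble replicate 1, 231 without scramble replicate 2, 381 without Brd9 replicate 1 and 1020 without Brd9 replicate 2. In all 4 of these fits 155 genes remained called higher and 53 lower, and a gene described below as firm is one of these 208.

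Called genes that averaged 5 CPM or more, with both Brd9 libraries beyond both scramble libraries, were ranked by the size of their log2 fold change. The first ranks, Sfrp2, Igdcc4, Prelp, Lpl, Fbln7 and Dhrs3 on the higher side and Slco4a1, Crmp1, Ngfr, Dok7 and Car8 on the lower side, come before those of ranks 7 to 18. Islr, which encodes a secreted protein of mesenchymal cells, rose from 13.4 and 11.8 CPM to 124 and 119 CPM (3.26 ± 0.17, adjusted p = 4.41e-05). Fndc1, a fibronectin type III domain gene, rose from 4.83 and 4.91 CPM to 43.3 and 39.8 CPM (3.09 ± 0.15, adjusted p = 2.7e-05). In both genes the 2 Brd9 libraries lay close together. Gas6, the ligand of the TAM receptor kinases, rose from 1.74 and 2.89 CPM to 20.4 and 20.3 CPM (3.13 ± 0.26). Itga11, which encodes a collagen receptor subunit, rose from 2.02 and 1.33 CPM to 17.0 and 17.5 CPM (3.36 ± 0.26). Gbp2, an interferon-inducible GTPase gene, rose from 2.25 and 1.39 CPM to 22.7 and 17.3 CPM (3.45 ± 0.28). The transcription factor gene Maf rose from 1.52 and 1.04 CPM to 17.6 and 10.2 CPM (3.44 ± 0.34). For Maf and for Il1rn, which encodes the interleukin-1 receptor antagonist, Brd9 replicate 1 lay well above replicate 2: Il1rn was at 1.35 and 0.982 CPM in scramble and at 15.3 and 8.43 CPM in the Brd9 libraries (3.34 ± 0.34). The remaining genes of these ranks rose by 3.02 to 3.32 on the log2 scale. They are C1qtnf3, a secreted C1q and TNF-related protein gene (3.32 ± 0.27), Fmod, the proteoglycan fibromodulin (3.23 ± 0.26), Dkk3 of the Dickkopf family (3.12 ± 0.33), Selenop, the plasma selenium carrier (3.03 ± 0.32), and the imprinted gene Mest (3.02 ± 0.34). All 12 genes, of ranks 7 to 18, are firm.

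Ranks 6 to 18 on the lower side include neurofilament and muscle genes. Nefl, the light neurofilament subunit, fell from 273 and 246 CPM to 48.7 and 52.4 CPM (-2.36 ± 0.15, adjusted p = 7.13e-05). Nefm, the medium subunit, fell from 150 and 131 CPM to 35.3 and 32.1 CPM (-2.06 ± 0.17). Gap43, a growth cone protein gene, fell from 40.2 and 33.8 CPM to 6.54 and 7.38 CPM (-2.41 ± 0.22). Stmn4, of the stathmin family of tubulin-binding proteins, fell from 47.0 and 39.6 CPM to 12.7 and 11.2 CPM (-1.86 ± 0.23). The 2 groups lay several-fold apart in these 4 neuronal genes, but ranked genes were chosen for separate groups, so the separation is no support. Among muscle genes, Xirp1, an actin-binding protein of the myotendinous junction and intercalated disc, fell from 24.0 and 29.5 CPM to 4.51 and 5.39 CPM (-2.43 ± 0.22). Tnnt2, cardiac troponin T, which skeletal muscle makes early in development, fell from 63.6 and 62.4 CPM to 14.2 and 15.9 CPM (-2.06 ± 0.14). Of the rest, Wnt7b (-2.40 ± 0.29), a Wnt ligand gene, Igsf5 (-2.10 ± 0.19), an immunoglobulin superfamily gene, Tigit (-2.10 ± 0.18), an immune receptor gene, and Tax1bp3 (-1.87 ± 0.14), a PDZ domain gene, also fell. The genes named in this paragraph are firm.

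**Figure D1:**
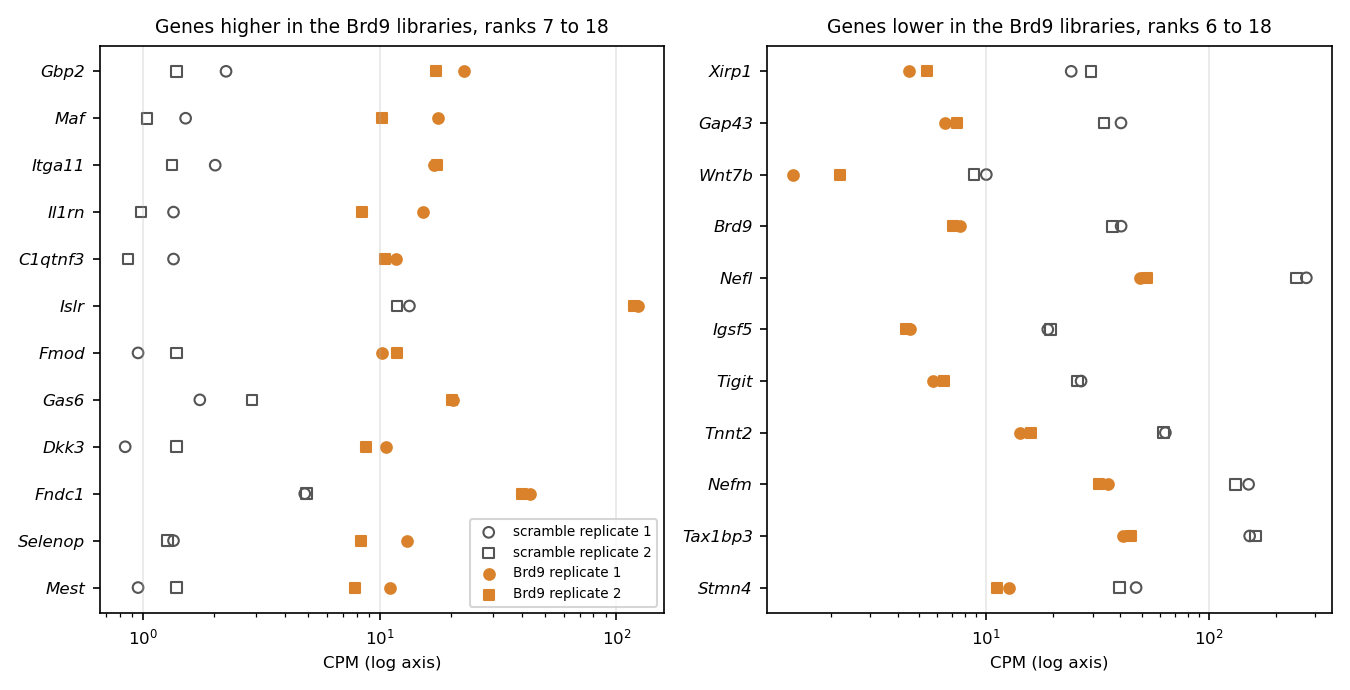
CPM on a log axis for the genes of ranks 7 to 18 among those called higher (left) and genes of ranks 6 to 18 among those called lower that are reported here (right), with 1 symbol for each scramble (open) and Brd9 (filled) library. The genes plotted are called ones, and the groups of all 1244 called genes lie apart (65.0% of all tested genes), so the plot shows levels and gaps, not support; Nefl has the highest levels on the lower side.

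The genes with the most counts that changed did so by less than 2-fold, except H19. H19, a non-coding RNA of an imprinted locus, rose from 634 and 596 CPM to 1439 and 1463 CPM (1.24 ± 0.14, adjusted p = 0.000897) and is firm. Acta2, smooth muscle actin, rose from 3094 and 3121 CPM to 4753 and 5842 CPM (0.77 ± 0.17). Csf1, the macrophage growth factor, rose from 533 and 540 CPM to 955 and 1039 CPM (0.89 ± 0.13). Thbs1, thrombospondin 1, rose from 639 and 601 CPM to 1281 and 963 CPM (0.86 ± 0.18). Others on the higher side were Col3a1 (0.74 ± 0.13), Hspg2 (0.66 ± 0.18), which encodes perlecan, the endocytic receptor gene Lrp1 (0.65 ± 0.13) and Col1a2 (0.56 ± 0.12). On the lower side, Eef2, the ribosome translocation factor, fell from 7315 and 7556 CPM to 3553 and 4820 CPM (-0.83 ± 0.21), with a wide gap between the Brd9 libraries. Rpsa fell from 4295 and 5082 CPM to 2581 and 3006 CPM (-0.75 ± 0.15), and Rps2 (-0.63 ± 0.17) and Rps6 (-0.57 ± 0.14), which like Rpsa encode proteins of the small ribosomal subunit, fell with it. Vim, the intermediate filament vimentin, fell from 7044 and 6873 CPM to 4738 and 5036 CPM (-0.51 ± 0.12). Tuba1b (-0.66 ± 0.17), Hspa8 (-0.60 ± 0.13) and Cfl1 (-0.52 ± 0.13), which encode a tubulin, a chaperone and cofilin, also fell. Apart from H19, the calls of these abundant genes each ended in at least 2 of the fits without a library, with adjusted p up to 0.276.

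Gene lists describe what the called genes do. The lists hold 2685 of the tested genes, of which 447 were called, and the median log2 fold change over all tested genes was 0.04. The shares to set beside each list's counts are those over all tested genes, 6.45% called higher and 3.57% called lower. With the GC and length offsets described below they are 14.4% and 13.9%. Counts near these shares say nothing particular about a list.

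Matrix genes rose across most families. Of 25 tested collagen genes 12 rose and 1 fell (median 0.61), and their summed level went from 4252 and 4084 CPM to 6939 and 6721 CPM. Col12a1, a fibril-associated collagen, rose from 207 and 184 CPM to 746 and 562 CPM (1.74 ± 0.16), and Col6a2, a chain of the microfibrillar collagen around muscle fibres, rose from 22.6 and 17.6 CPM to 91.0 and 86.7 CPM (2.14 ± 0.21). Col5a3 (1.96 ± 0.19) and Col8a2 (2.93 ± 0.24) rose too, whereas Col7a1, the anchoring fibril collagen, fell (-1.26 ± 0.21). Of 24 laminin and basement membrane genes 9 rose and none fell (median 0.36). Among them Nid2, nidogen 2, rose from 69.9 and 62.1 CPM to 324 and 299 CPM (2.24 ± 0.13). Lama1, the laminin alpha chain of early embryos, rose from 0.281 and 0.289 CPM to 8.63 and 6.81 CPM (4.73 ± 0.32), and Lama2, the alpha chain of adult muscle, rose from 5.17 and 4.68 CPM to 29.5 and 24.0 CPM (2.44 ± 0.21). Npnt, the integrin ligand nephronectin, rose by 1.30 ± 0.13. The 16 elastic fibre and fibulin genes had 8 rises and no fall (median 0.77), with Emilin1 (2.06 ± 0.21) and Fbln5 (1.52 ± 0.15) among them, and Mfap2, a microfibril gene with 1 count in each scramble library, at 22 and 21 counts in the Brd9 libraries, a ratio of 19.004 (exact 95% interval 4.95 to 162, counting error only). Of the genes named here, Col7a1 and Mfap2 are not firm, with adjusted p up to 0.0843 and 0.0588.

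Enzymes that build and cut the matrix moved as well. Of 47 matrix proteases and inhibitors 20 rose and 2 fell (median 0.54). Adamts2, the procollagen N-proteinase, rose from 8.65 and 8.55 CPM to 34.9 and 31.9 CPM (1.96 ± 0.15), and Adamts5, an aggrecan-cutting protease gene, rose by 1.99 ± 0.21. Mmp19 (1.604 ± 0.16), a matrix metalloprotease gene, and Adam23 (4.10 ± 0.34), a member of the family without catalytic residues, rose, and all 4 are firm. Plaur, the urokinase receptor, fell from 169 and 176 CPM to 87.7 and 97.1 CPM (-0.90 ± 0.14). Of 26 genes for collagen processing and crosslinking 5 rose and 2 fell (median 0.04), with Lox, the crosslinking lysyl oxidase, at 304 and 294 CPM in scramble and 787 and 493 CPM in the Brd9 libraries (1.10 ± 0.22), and Pcolce2, a procollagen proteinase enhancer, lower (-0.82 ± 0.14). Among 21 matricellular genes 5 rose and 2 fell (median 0.35). Postn (2.18 ± 0.34) and Ccn5 (2.30 ± 0.27) rose, whereas Tnc, tenascin C, fell from 1393 and 1332 CPM to 760 and 850 CPM (-0.76 ± 0.12), and Ccn2, a well-known TGF-beta and YAP target, fell (-0.53 ± 0.12). The calls of Plaur, Lox, Pcolce2, Postn, Tnc and Ccn2 ended without at least 1 library, with adjusted p up to 0.195.

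Small leucine-rich proteoglycans bind collagen fibrils and set their width. Of 9 tested, 3 rose and 1 fell (median 1.502), yet their summed level went down, from 1742 and 1640 CPM to 949 and 1063 CPM, since Bgn, biglycan, makes up most of it and fell from 1691 and 1592 CPM to 858 and 966 CPM (-0.85 ± 0.15, adjusted p up to 0.0905 without a library). The 3 that rose, Optc, Prelp and Fmod, are neighbours. They lie in the single run of 4 or more neighbouring tested genes that were all called the same way, on chromosome 1 from 133702674 to 134292548 (GRCm38). Its 6 genes in order are Atp2b4, Optc, Prelp, Fmod, Btg2 and Myog. Atp2b4, a plasma membrane calcium pump, had 1031 and 812 counts in scramble and 2443 and 2256 in the Brd9 libraries (1.17 ± 0.14). Optc, opticin, had 8 and 9 counts against 42 and 48 (2.21 ± 0.35), Prelp 12 and 8 against 271 and 234 (4.46 ± 0.31), and Fmod 17 and 24 against 211 and 226 (3.23 ± 0.26). Btg2, an antiproliferative gene, had 207 and 256 counts against 609 and 528 (1.11 ± 0.20), and Myog, the myogenic factor myogenin, 4 and 4 against 17 and 29 (2.32 ± 0.59, adjusted p = 0.0395). The tested neighbours on the outer sides, Zbed6 (0.82 ± 0.37, adjusted p = 0.170) and Tmem183a (-0.21 ± 0.12, adjusted p = 0.277), were not called. Farther out, beyond other tested genes that were not called, Kdm5b was called higher (0.90 ± 0.17, adjusted p = 0.0113). Between Btg2 and Myog lie genes with too few counts to test, among them Mybph, a myosin-binding protein gene with 5 and 1 counts in scramble and 9 and 26 in the Brd9 libraries. All 6 genes were also called with the GC and length offsets described below. Without some library the adjusted p of Optc, Btg2 and Myog reached 0.0588, 0.0987 and 0.203.

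**Figure D2:**
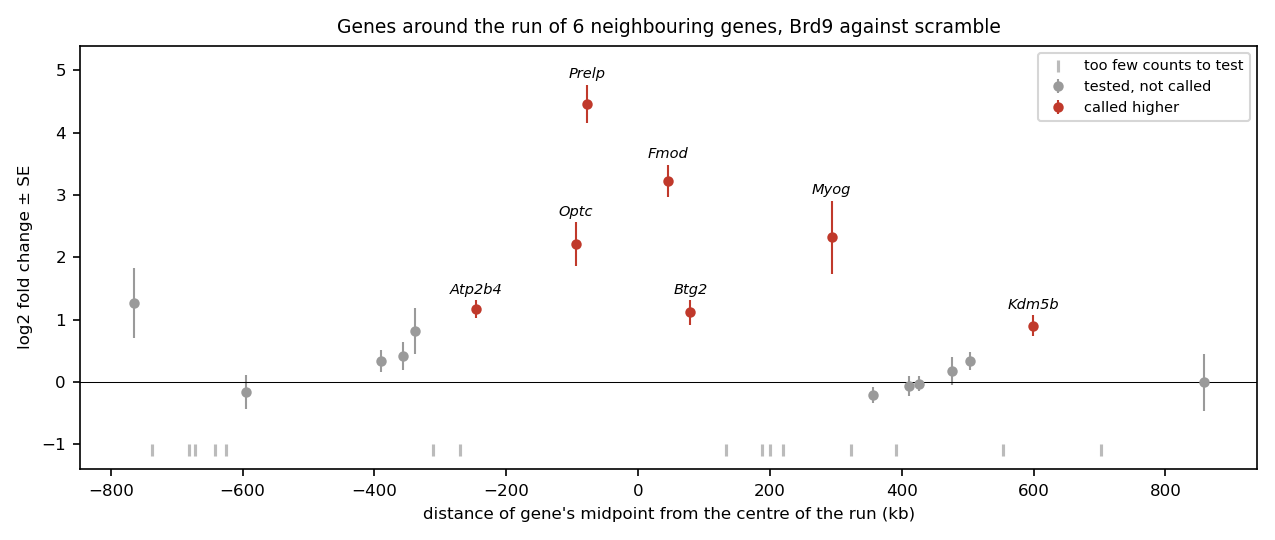
Log2 fold change with its standard error for each tested gene around the run, by distance of its midpoint from the centre of the run in kilobases. Ticks at the bottom mark genes with too few counts to test. The 6 genes of the run rose by 1.11 to 4.46 while the nearest tested genes on either side were not called. Kdm5b, farther out on the right, was also called higher (0.90 ± 0.17).

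Complement and cytokine genes rose more often than they fell. Of 14 complement genes and relatives 9 rose and 1 fell (median 1.06). C1s1, a protease of the first complement component, rose from 2.64 and 2.14 CPM to 15.3 and 10.0 CPM (2.40 ± 0.26), and its partner C1ra rose from 13.0 and 11.04 CPM to 30.3 and 26.2 CPM (1.23 ± 0.16). C1qtnf1 rose by 1.58 ± 0.16, and these 3 are firm. The fall was of C1qbp (-0.61 ± 0.13), which is mainly a mitochondrial protein, and its adjusted p reached 0.201 without a library. Of 49 chemokine, cytokine and NF-kB genes 12 rose and 1 fell (median 0.25). Cxcl14, a chemokine of fibroblasts, had 1 count in each scramble library and 86 and 68 in the Brd9 libraries, a ratio of 68.1 (exact 95% interval 18.5 to 567, counting error only). Cxcl1, a neutrophil chemokine, rose from 49.1 and 45.1 CPM to 99.96 and 89.9 CPM (1.01 ± 0.13), and Stat3, the interleukin-6 signal transducer, from 68.4 and 62.9 CPM to 117 and 119 CPM (0.85 ± 0.12). The chemokine Ccl5 fell (-2.13 ± 0.51). Of 29 interferon and antigen presentation genes 5 rose and none fell (median 0.46), with Xaf1, an interferon-induced regulator of apoptosis (2.38 ± 0.28), and Ddx58, the RNA sensor RIG-I (0.83 ± 0.19), beside Gbp2. The calls of Cxcl1, Stat3, Ccl5 and Ddx58 were lost without at least 1 library, with adjusted p up to 0.215.

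Signalling pathways differed in direction. The Wnt list, with ligands, receptors and secreted inhibitors, had 14 rises and 3 falls among 46 genes (median 0.46). The rises include inhibitors of the pathway: beside Sfrp2 and Dkk3, Sfrp1, a secreted Wnt-binding protein, rose from 0.225 and 0.405 CPM to 5.53 and 2.72 CPM (3.69 ± 0.47), and Nkd2, an intracellular antagonist, from 0.730 and 0.982 CPM to 6.496 and 6.34 CPM (2.90 ± 0.28). Not all inhibitors went that way, since Dkk2 fell from 2.41 and 2.37 CPM to 0.145 and 0.314 CPM (-3.36 ± 0.48) along with the ligand Wnt7b. In the BMP list 9 of 33 genes rose and none fell (median 0.42), with the ligand Bmp4 at 8.42 and 7.22 CPM in scramble and 25.3 and 16.5 CPM in the Brd9 libraries (1.42 ± 0.23), the inhibitory Smad6 (1.05 ± 0.15), which is also a target of the pathway, and the antagonist Chrd (1.81 ± 0.33). The TGF-beta and activin list had 5 rises and 1 fall among 27 genes (median 0.28), with Smad3, a signal transducer (0.93 ± 0.14), and the ligand genes Tgfb3 (0.84 ± 0.13) and Inhbb (0.85 ± 0.13) higher. Sfrp1, Nkd2 and Dkk2 are firm, and for the BMP and TGF-beta genes named here the adjusted p reached 0.107 without a library.

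Among Notch genes 7 of 23 rose and 1 fell (median 0.21). The receptor Notch3 rose from 42.8 and 38.5 CPM to 162 and 186 CPM (2.10 ± 0.17), Notch2 from 125 and 121 CPM to 232 and 214 CPM (0.85 ± 0.14), and Lfng, a glycosyltransferase that modifies the receptors, from 29.7 and 27.4 CPM to 54.7 and 66.3 CPM (1.08 ± 0.15). Hey1, a transcriptional repressor and direct target of the pathway, rose from 3.43 and 2.77 CPM to 9.02 and 10.2 CPM (1.63 ± 0.23). The ligand Jag2 went the other way, from 82.9 and 76.6 CPM to 32.4 and 39.8 CPM (-1.15 ± 0.16). The Hedgehog list had 5 rises and 1 fall among 16 genes (median 0.17), and the coreceptor genes Gas1 (1.42 ± 0.16), Boc (1.35 ± 0.16) and Cdon (0.64 ± 0.14), the latter pair known for cell contact signals in myogenesis, rose, while Hhip, which binds and sequesters the ligands, fell (-1.29 ± 0.25). Notch3, Jag2, Gas1 and Boc are firm. Without a library the adjusted p of the others reached 0.203, and that of Hey1 0.0514.

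ERK feedback genes fell more often than they rose. In the list of ERK feedback and EGF-family genes 8 of 26 fell and 1 rose (median -0.19). Dusp6, a phosphatase specific for ERK, fell from 54.8 and 52.9 CPM to 29.3 and 26.6 CPM (-0.95 ± 0.16), and Dusp5 (-0.87 ± 0.16) and Dusp4 (-0.66 ± 0.12), of the same phosphatase family, fell with it. Etv4, an ETS factor downstream of FGF and ERK, fell from 153 and 154 CPM to 60.2 and 82.9 CPM (-1.103 ± 0.22). In the FGF list, with 3 rises and 1 fall among 19 genes (median 0.43), Spry4, a feedback inhibitor of receptor kinases, fell from 19.1 and 21.3 CPM to 8.77 and 8.38 CPM (-1.23 ± 0.23). Several receptor genes rose. Egfr rose by 0.77 ± 0.16, Fgfr4 from 1.07 and 0.809 CPM to 4.36 and 4.61 CPM (2.25 ± 0.29), Fgfr2 by 1.495 ± 0.25, and Pdgfra, the receptor that marks mesenchymal progenitors, from 9.10 and 7.22 CPM to 26.5 and 19.01 CPM (1.48 ± 0.21). Vegfc, a lymphatic growth factor, fell (-1.19 ± 0.22). Of these genes Fgfr4 is firm, and the others lost their call without at least 1 library, with adjusted p up to 0.199.

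Imprinted and IGF genes gave some of the widest ratios. Of 22 imprinted genes 5 rose and 1 fell (median 0.46). Igf2, a fetal growth factor next to H19 on chromosome 7, had 0 and 4 counts in scramble and 72 and 76 in the Brd9 libraries, a ratio of 32.7 (exact 95% interval 12.5 to 122, counting error only). Igf2 and H19 both rose, and so did Mest and Peg10, a retrotransposon-derived gene (67.6 and 62.6 CPM to 173 and 145 CPM, 1.29 ± 0.20). Plagl1, a zinc finger regulator of imprinted genes, fell (-1.47 ± 0.39). Among 21 IGF and insulin pathway genes 4 rose and 1 fell (median -0.01), with Igfbp5, a binding protein made by myoblasts, higher (94.1 and 81.7 CPM to 226 and 170 CPM, 1.17 ± 0.16) and Igf2bp3, an RNA-binding protein gene, lower (-1.77 ± 0.28). Igf2 and H19 are firm, and the adjusted p of the other 4 rose above 0.05 without at least 1 library, to 0.275 at most.

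The myoblast label fits the defining markers, which were expressed in all 4 libraries. Myod1, the myogenic determination factor, was at 154 and 157 CPM in scramble and 143 and 181 CPM in the Brd9 libraries (0.06 ± 0.18, adjusted p = 0.838). Myf5, a related factor, was at 22.2 and 28.0 CPM against 24.3 and 18.2 CPM (-0.24 ± 0.25, adjusted p = 0.543). Neither was called without the GC and length offsets, and both were called with them, as described below. Pax7, the satellite cell factor, rose from 3.20 and 2.77 CPM to 11.6 and 10.2 CPM (1.87 ± 0.34, adjusted p = 0.0101). Myog stayed rare although it rose, as given above. In the list of 30 myogenic factors and partners 8 rose and 2 fell (median 0.35). Six4, a homeobox activator of muscle genes, rose (1.04 ± 0.25), and Twist2 (-0.67 ± 0.16) and Msc (-1.15 ± 0.30), bHLH repressors of myogenesis, fell. Each of these calls was lost without at least 1 library, with adjusted p up to 0.328.

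Of 25 myoblast surface and fusion genes 9 rose and 1 fell (median 0.19). Dysf, the membrane repair protein dysferlin, rose from 7.53 and 4.97 CPM to 22.3 and 27.2 CPM (1.99 ± 0.22). Cxcr4, a chemokine receptor, rose from 7.36 and 7.22 CPM to 23.9 and 19.3 CPM (1.57 ± 0.19), and Ncam1, an adhesion molecule of muscle precursors, from 108 and 102 CPM to 204 and 199 CPM (0.94 ± 0.12). Cd34, a progenitor surface sialomucin, fell from 52.6 and 51.5 CPM to 24.6 and 20.9 CPM (-1.19 ± 0.15). Of 29 sarcomere and calcium handling genes 10 rose and 2 fell (median 0.37). Ldb3, a Z-disc protein gene, rose from 8.31 and 7.28 CPM to 27.8 and 25.98 CPM (1.78 ± 0.16), and Ryr3, a calcium release channel, from 1.52 and 0.982 CPM to 6.25 and 5.08 CPM (2.17 ± 0.30). Ryr1, the channel of adult muscle, rose to no more than 1.89 and 2.93 CPM (2.07 ± 0.38). Xirp1 and Tnnt2 are the 2 falls. Markers of differentiated myotubes moved beside these lists at low counts. Mymk, the fusion protein myomaker, had 9 and 3 counts in scramble and 34 and 42 in the Brd9 libraries (2.47 ± 0.53), and Myh3, embryonic myosin, 3 and 0 against 12 and 17, a ratio of 8.54 (exact 95% interval 2.65 to 43.8, counting error only). Acta1, skeletal actin, was at 15.9 and 17.2 CPM against 9.40 and 13.8 CPM (-0.52 ± 0.21, adjusted p = 0.130) and was not called, and the part of more differentiated cells in the muscle lists was not tested. At the neuromuscular synapse and in the dystrophin complex 5 of 28 genes rose and 3 fell (median 0.23). Lrp4, the agrin receptor, rose from 13.5 and 14.0 CPM to 49.8 and 51.7 CPM (1.89 ± 0.14), and Sgca, alpha-sarcoglycan, from 0.842 and 0.405 CPM to 9.55 and 8.75 CPM (3.86 ± 0.45). The acetylcholine receptor subunits parted: Chrng, the fetal gamma subunit, rose (1.88 ± 0.33) while Chrnd, the delta subunit, fell from 29.1 and 30.2 CPM to 13.8 and 15.0 CPM (-1.04 ± 0.19), and the alpha subunit Chrna1, at 302 CPM in both scramble libraries and 304 and 325 CPM in the Brd9 libraries, was not called. Ncam1, Ryr1, Mymk, Myh3, Chrng and Chrnd lost their calls without at least 1 library, with adjusted p up to 0.225, and the other called genes of this paragraph are firm.

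Markers of related lineages were checked as lists. Of 12 smooth muscle and pericyte markers 6 rose and none fell (median 0.62). Their summed level was 5448 and 5401 CPM in scramble and 7113 and 8913 CPM in the Brd9 libraries. Acta2 makes up most of that sum, with 3094 and 3121 CPM in scramble and 4753 and 5842 CPM in the Brd9 libraries. Its call is not firm, so the sum says little about the list as a whole. Lmod1, leiomodin 1, which seeds actin filaments in smooth muscle cells, rose from 6.12 and 4.74 CPM to 34.2 and 40.1 CPM (2.77 ± 0.18), and Cnn1, calponin, from 36.2 and 34.0 CPM to 110 and 128 CPM (1.76 ± 0.15). Synpo2, an actin-bundling protein gene, rose by 0.84 ± 0.13 and Mylk, the myosin light chain kinase, by 1.66 ± 0.31, and both lost their call without at least 1 library, with adjusted p up to 0.126. Myh11, the smooth muscle myosin that defines mature cells of that type, had 2 and 5 counts in scramble and 3 and 5 in the Brd9 libraries. Of 10 fibroblast and fibro-adipogenic markers 5 rose and 1 fell (median 0.87), among them Col1a1 (139 and 137 CPM to 276 and 276 CPM, 1.00 ± 0.12). Both lists share genes with the matrix and contractile lists. Of 5 tested adipocyte markers 2 rose: Cebpa, an adipogenic transcription factor, went from 7.36 and 5.89 CPM to 28.0 and 27.8 CPM (2.07 ± 0.17), and Lpl. Of 10 neural markers 5 fell and none rose (median -1.1004). Of 11 cartilage and bone markers 1 rose and none fell (median 0.25), a share (9.09%) near the 10.0% of all tested genes. Several markers that define whole other cell types were at or near 0. Adipoq and Retn of fat cells and Snap25 of neurons had 0 counts in all 4 libraries. Pecam1, Cdh5 and Ptprc, of endothelium and leukocytes, had at most 4 counts in any library. Others had more counts but were not called. Csf1r of macrophages had 7 and 3 counts in scramble and 12 and 8 in the Brd9 libraries. Sp7 of bone had 2 and 3 against 12 and 6, and Col10a1 of cartilage 11 and 4 against 16 and 7. Of 2 tested endothelial and 3 tested leukocyte markers none was called. In a bulk library fewer cells of a kind and less RNA per cell cannot be told apart.

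Adhesion, guidance and channel genes were mixed. Of 30 protocadherins, clustered adhesion genes that share exons at their ends, 7 rose and none fell (median 0.59), at low levels: Pcdhgb1 went from 1.18 and 0.694 CPM to 3.59 and 4.50 CPM (2.10 ± 0.34) and Pcdhga1 from 0.337 and 0.231 CPM to 1.84 and 1.73 CPM (2.62 ± 0.44). Since the gamma cluster genes share their last exons, the split of counts between them is uncertain. Of 28 semaphorins and plexins 5 rose and 2 fell (median 0.17), with the receptor Plxnd1 higher (0.86 ± 0.15) and the ligands Sema7a (-0.78 ± 0.14) and Sema5a (-0.96 ± 0.17) lower. Slit2, a secreted repellent, rose from 18.5 and 20.1 CPM to 66.0 and 46.3 CPM (1.54 ± 0.20). Among 27 voltage-gated channel genes 6 rose and 4 fell (median 0.45). Tubulin and neurofilament genes fell in 8 of 29 cases and rose in 1 (median -0.34), the rise being of Dclk1, a microtubule-associated kinase (1.29 ± 0.22). Solute carriers were balanced, with 12 of 193 higher and 11 lower (median 0.05), and the 11.9% called is near the 10.0% of all tested genes. Among them the glutamate transporters Slc1a3 (12.1 and 12.4 CPM to 57.8 and 47.7 CPM, 2.11 ± 0.20) and Slc1a6 (3.46 ± 0.29) rose. The amino acid transporter Slc38a7 fell from 72.9 and 71.7 CPM to 27.3 and 37.6 CPM (-1.16 ± 0.19). Slit2 and both glutamate transporters are firm, and for the others the adjusted p reached 0.112.

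**Figure D3:**
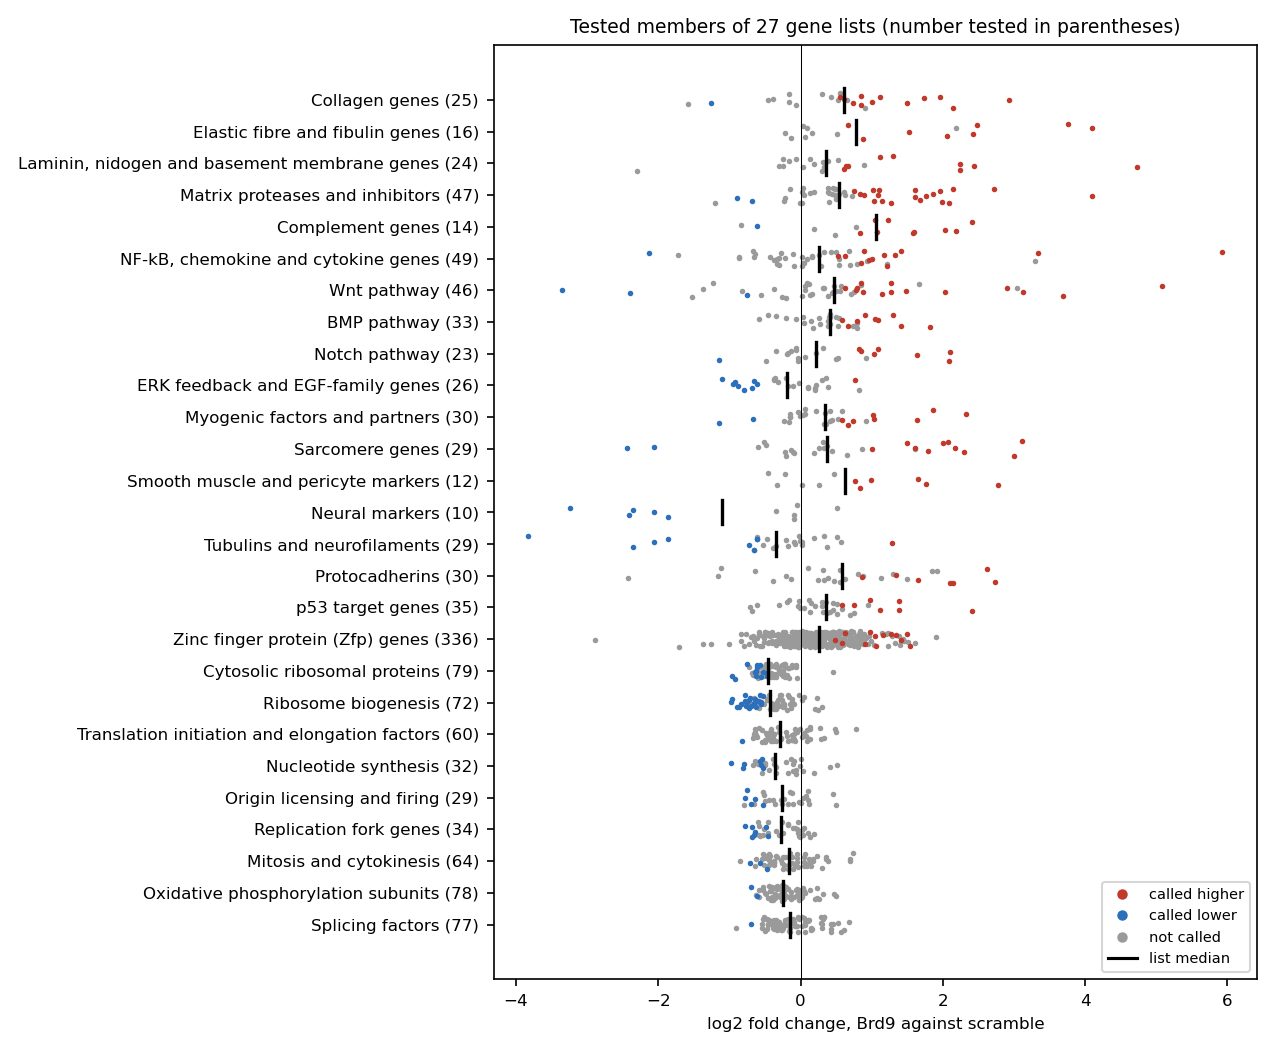
Log2 fold change (Brd9 against scramble) of each tested member of 27 gene lists, with called genes in colour and a bar at each list's median. Matrix, complement and signalling lists spread to the right with rises above 2 on the log2 scale, while ribosome, nucleotide and replication lists form narrow bands left of 0.

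In the ribosome, translation, tRNA synthetase and nucleotide lists the called genes fell and none rose. Of 79 cytosolic ribosomal protein genes 13 fell and none rose (median -0.46), and 1 of the 79 had a positive fold change. Their summed level was 83280 and 84084 CPM in scramble and 53644 and 64651 CPM in the Brd9 libraries. Of 72 ribosome biogenesis genes 22 fell and none rose (median -0.42), or 56 with the GC and length offsets. Nop56, a core protein of box C/D snoRNPs, fell from 338 and 328 CPM to 200.5 and 208 CPM (-0.71 ± 0.12), Emg1, an rRNA methyltransferase, from 115 and 114 CPM to 51.8 and 63.5 CPM (-0.98 ± 0.19), and Nhp2, of box H/ACA snoRNPs, from 172 and 193 CPM to 90.0 and 109 CPM (-0.87 ± 0.18). Of 78 mitochondrial ribosomal protein genes 7 fell and none rose (median -0.36), with Mrps6 the clearest (-0.86 ± 0.15). Of 60 translation factors 1 fell, Eef2, and none rose (median -0.29), a share (1.67%) below the 3.57% of all tested genes called lower. With the offsets 22 fell. Of 22 aminoacyl-tRNA synthetase genes 2 fell (median -0.44), or 16 with the offsets: Hars, the histidine enzyme, went from 148 and 140 CPM to 75.9 and 74.4 CPM (-0.94 ± 0.12) and Aimp2, a scaffold of the synthetase complex, from 142 and 148 CPM to 58.1 and 81.8 CPM (-1.06 ± 0.20). Nucleotide synthesis genes fell in 7 of 32 cases (median -0.36), including Impdh1, of guanine nucleotide synthesis (-0.98 ± 0.18), and Gart, of purine synthesis (-0.79 ± 0.17). Odc1, the first enzyme of polyamine synthesis and a Myc target, fell from 569 and 608 CPM to 298 and 385 CPM (-0.78 ± 0.17). Myc itself was at 107 and 109 CPM against 86.7 and 83.1 CPM (-0.35 ± 0.13, adjusted p = 0.121), while Mycl, its relative, rose from 9.66 and 10.1 CPM to 23.9 and 21.5 CPM (1.20 ± 0.19) and Mxd4, an antagonist of Myc, from 14.2 and 12.8 CPM to 31.2 and 30.5 CPM (1.19 ± 0.21). Of the genes named in this paragraph Hars is firm, and the adjusted p of the other called genes reached 0.237. Brd9 replicate 1 lay below replicate 2 in the ribosomal sums, and the part of its library composition in that was not tested.

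The D-type cyclin, licensing and fork genes that were called fell, while the p53 target list had rises only without the GC and length offsets. Ccnd1, the cyclin that starts the cycle, fell from 526 and 498 CPM to 315 and 334 CPM (-0.66 ± 0.13, adjusted p = 0.015), and Ccnd2 from 72.1 and 68.7 CPM to 38.5 and 29.9 CPM (-1.04 ± 0.18). E2f2, an activating E2F factor, fell from 25.7 and 25.1 CPM to 10.0 and 11.2 CPM (-1.26 ± 0.15), and Mybl2, a proliferation factor, by 0.95 ± 0.21 on the log2 scale. The pocket protein genes Rbl2 (19.04 and 19.997 CPM to 49.6 and 35.4 CPM, 1.12 ± 0.20) and Rb1 (1.01 ± 0.25), which hold E2F factors back, rose. Of 29 origin licensing genes 5 fell and none rose (median -0.26), with Cdt1 (-0.77 ± 0.16), Cdc6 (-0.64 ± 0.14) and Mcm7 (401 and 408 CPM to 208 and 272 CPM, -0.75 ± 0.18). Of 34 replication fork genes 7 fell and none rose (median -0.28). E2F and pocket protein genes had 2 rises and 3 falls among 20 (median -0.01). Of 64 mitosis genes 3 fell and none rose (median -0.16), a share near the 3.57% of all tested genes called lower, with Birc5, survivin, among them (-0.57 ± 0.13), and with the offsets 27 fell and 2 rose. Mki67, the proliferation marker, was at 151 and 178 CPM against 98.2 and 116 CPM (-0.62 ± 0.25, adjusted p = 0.137), lower in both Brd9 libraries but not called. Cdkn1a, the cyclin-dependent kinase inhibitor p21, was at 223 and 226 CPM against 274 and 325 CPM (0.41 ± 0.14, adjusted p = 0.0947) and was not called, and none of 6 tested inhibitor genes was (median 0.33). The p53 target list had 7 rises among 35 genes and no fall (median 0.36), or 15 rises and 3 falls with the offsets. The rises include Sulf2, a heparan sulfatase (0.98 ± 0.14), Ak1, adenylate kinase (0.74 ± 0.13), and the death receptor Fas (1.39 ± 0.30). E2f2 is firm. The other calls in this paragraph ended without at least 1 library, with adjusted p up to 0.262.

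Metabolic lists differed, and fatty acid synthesis and glycolysis had calls in both directions. Among 31 genes of fatty acid synthesis and storage 4 rose and 4 fell (median 0.09). Pnpla2, the lipase that opens triglyceride stores, fell from 57.4 and 59.6 CPM to 18.6 and 24.4 CPM (-1.45 ± 0.20), and Acaca, the first committed enzyme of fatty acid synthesis, from 203 and 201 CPM to 99.5 and 119 CPM (-0.89 ± 0.13), whereas Lpl, Lpin1 (1.10 ± 0.20) and the desaturase gene Scd1 (0.67 ± 0.16) rose. Fatty acid oxidation had 5 rises and no fall among 28 genes (median 0.08), with the uncoupling protein gene Ucp2 going from 11.5 and 11.04 CPM to 25.9 and 25.8 CPM (1.20 ± 0.19). Of 39 glycolysis and hypoxia genes 4 rose and 3 fell (median -0.15). Gapdh, often used as a reference, was at 9995 and 10077 CPM in scramble and 5767 and 7579 CPM in the Brd9 libraries (-0.59 ± 0.21, adjusted p = 0.106), and 2 of 20 housekeeping genes fell, Gusb (-0.77 ± 0.14) and Pgk1 (-0.49 ± 0.13). Oxidative phosphorylation had 2 falls and no rise among 78 genes (median -0.25), a share (2.56%) below the 3.57% of all tested genes called lower. With the offsets it had 9 falls and 3 rises (median -0.07). The tricarboxylic acid cycle had 3 falls and no rise among 29 (median -0.11), and cholesterol synthesis none called among 28 (median -0.13). In the lysosome list 3 of 47 genes fell and 1 rose (median 0.04), with the protease Ctsl going from 483 and 431 CPM to 231 and 221 CPM (-1.01 ± 0.13). The vitamin D receptor gene Vdr, of the nuclear receptor list (3 of 29 higher, none lower, median 0.25), rose from 74.9 and 69.8 CPM to 229 and 236 CPM (1.68 ± 0.12, adjusted p = 0.000153). Pnpla2, Acaca, Ctsl and Vdr are firm, and for the other called genes the adjusted p reached 0.309.

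Most of the YAP, stress and early-response lists had calls in both directions. Of 29 YAP and TEAD genes 6 rose and 2 fell (median 0.24). F3, tissue factor, rose from 15.0 and 14.9 CPM to 56.7 and 37.3 CPM (1.65 ± 0.23), and Vgll2, a muscle cofactor of TEAD proteins, by 1.59 ± 0.25. Wwc1, which encodes KIBRA, an upstream activator of the Hippo kinases, fell from 12.7 and 13.4 CPM to 4.02 and 3.51 CPM (-1.79 ± 0.21). The 28 early-response genes had 3 rises and 3 falls, with Klf4, a zinc finger factor, higher (1.20 ± 0.19) and Fosb, an AP-1 subunit, lower (-1.08 ± 0.27). Of 30 ATF4 and amino acid response genes 3 rose and 3 fell (median -0.34), among them Slc1a5, a glutamine transporter, lower (-1.05 ± 0.22), and Vldlr, a lipoprotein receptor, higher (2.36 ± 0.38). In the metallothionein and Nrf2 list 3 of 31 genes rose and none fell (median -0.03), led by the glutathione transferase Gstm2 (6.96 and 8.32 CPM to 19.9 and 25.3 CPM, 1.56 ± 0.23). Of 37 cytosolic chaperones 2 rose and 3 fell (median -0.20), with the heat-inducible Hspa1a higher (1.599 ± 0.29) and the constitutive Hspa8 lower. F3, Wwc1 and Gstm2 are firm, and for the others the adjusted p reached 0.205.

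Few chromatin genes outside SWI/SNF were called without the GC and length offsets, where 10.0% of all tested genes were called. Among 20 CHD, ISWI and INO80 remodellers and 14 CTCF and cohesin genes none was called (medians 0.16 and 0.17), but with the GC and length offsets 4 and 2 fell and the medians turned negative (-0.09 and -0.20). Of 25 Polycomb genes Ezh1, a histone methyltransferase of the complex, rose (17.1 and 13.9 CPM to 26.2 and 27.7 CPM, 0.80 ± 0.17) and Phc2 fell (-0.65 ± 0.18). That share (8.0%) is near the 10.0% of all tested genes, and with the offsets 4 Polycomb genes rose and 2 fell. Of 19 BET and acetyltransferase bromodomain genes 1 was called, the acetyltransferase Kat6b (0.88 ± 0.21). The 336 zinc finger (Zfp) genes had 13 rises (3.87%, below the 6.45% of all tested genes) and no fall (median 0.26). Their transcripts are AT-rich, with a median GC content of 44.6%, and with the offsets 30 rose and 15 fell (median 0.09). Splicing factor genes had 1 fall among 77 (1.30%, below the 3.57% of all tested genes, median -0.15), and 33 falls and 1 rise with the offsets. The single calls named in this paragraph were lost without at least 1 library, with adjusted p up to 0.318.

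Fold changes followed transcript GC content. GC content was known for 12290 genes (98.95% of those tested), and its Spearman rho with the fold change was -0.29, a description across genes, which are not independent replicates. Genes were split by GC content into 10 equal groups. In the lowest group, from 33.2% to 42.3%, the median log2 fold change was 0.34, with 50 genes called higher and 5 lower. In the group next to the highest the median was -0.16, with 76 higher and 58 lower, and in the highest -0.13, with 96 higher and 54 lower. The trend sat mainly in Brd9 replicate 1: against the scramble mean, the rho with GC content was -0.42 for Brd9 replicate 1 and -0.09 for Brd9 replicate 2. Between the 2 Brd9 libraries it was 0.62 and between the 2 scramble libraries 0.08. Gene length gave a rho of 0.26 with the fold change. When each library's trend with GC content and length was fitted and removed as an offset, rho with GC content became 0.07 and rho with length -0.01.

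With those offsets 3507 genes were called (28.2%), 1786 higher (14.4%) and 1721 lower (13.9%), so that the share of calls that are higher went from 64.4% to 50.9%. Of the 1244 genes called without offsets 1223 (98.3%) kept their call and direction and 0 took the other sign. The offsets added 998 higher and 1286 lower genes with a median absolute log2 fold change of 0.45. Myod1 (0.27), Myf5 (-0.50), Cdkn1a (0.59), Mki67 (-0.95) and Gapdh (-0.33) were called only with the offsets, as was Pbrm1, whose fold change became negative (-0.31). Smarca4, which encodes BRG1 (-0.33), and Tmem183a, beside the run on chromosome 1 (-0.37), were also called lower only with the offsets. A real change that runs with GC content would be removed by the offsets too. Without Brd9 replicate 1 the fit with offsets called 1471 genes. Of 85 list medians 43 moved by more than the spread of the libraries with the offsets, and 12 list medians changed sign, those of the solute carrier, IGF, fatty acid synthesis and metallothionein lists, given above near 0, among them. Lists given above with rises and no fall gained falls with the offsets. These include interferon (10 higher, 2 lower), laminin (12 and 2), Nrf2 (8 and 2), BMP (15 and 1), protocadherin (8 and 2) and smooth muscle (8 and 2) genes.

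**Figure D4:**
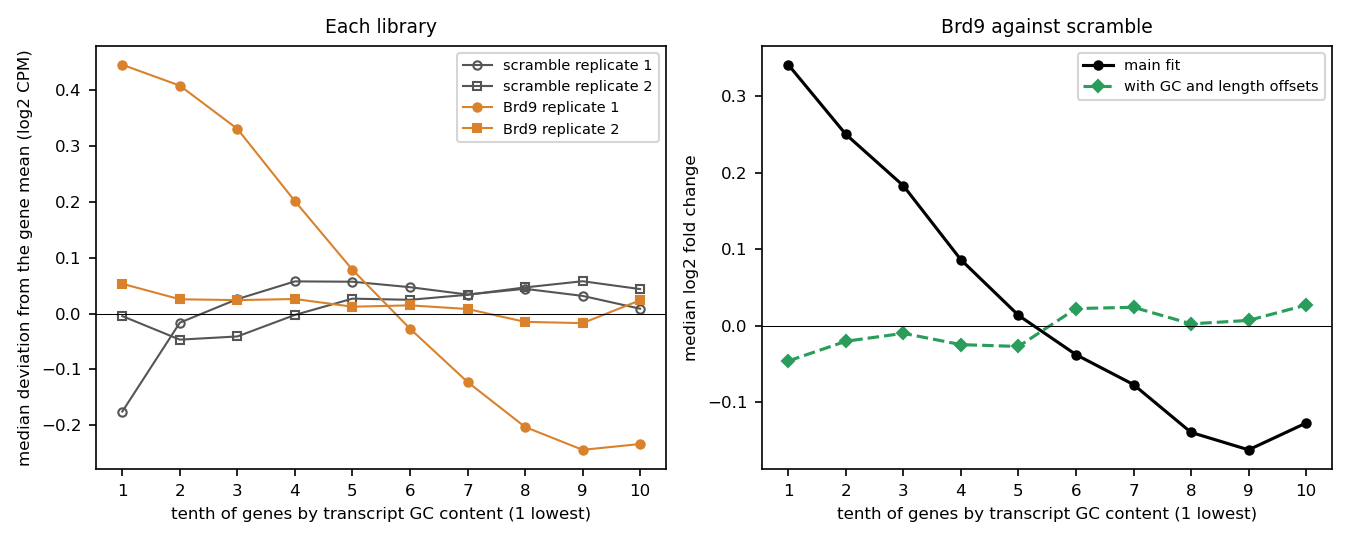
Left, how far log2 CPM lay from the mean of the 8 libraries for the same gene (median over genes), for each of the 4 libraries and each of 10 equal groups of genes by transcript GC content. Right, the median log2 fold change by group in the fit without offsets, which runs from 0.34 in the lowest group to -0.13 in the highest, and with offsets, which stays within 0.05 of 0.

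Rises were concentrated among genes of low and middle level and falls among abundant ones. Tested genes were split by mean CPM into 5 equal groups. In the lowest group 203 were higher and 38 lower (median 0.29), and in the highest group 100 were higher and 175 lower (median -0.18). With the offsets the highest group had 242 higher and 711 lower genes (28.6% lower), and the lowest group 388 higher and 96 lower. Spearman rho of fold change and mean CPM was -0.29, and -0.26 with the offsets. A CPM is a share of the library, and whether the total RNA per cell differed between the groups was not tested. By chromosome, the share of tested genes called ran from 7.55% on chromosome 17 to 11.8% on chromosome 19, around the 10.0% of the whole genome.

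**Figure D5:**
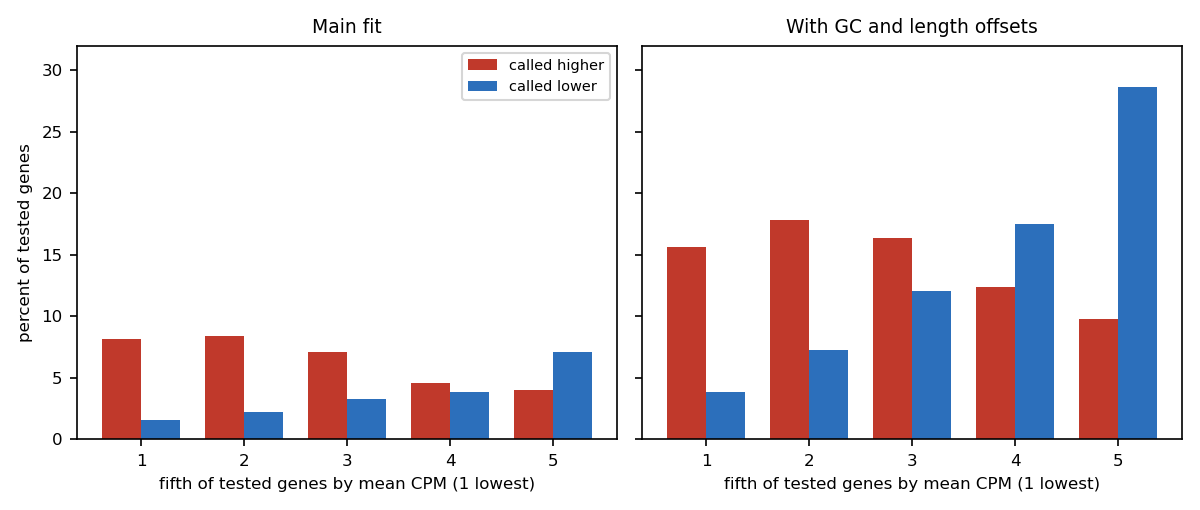
Percent of tested genes called higher and lower in each of 5 equal groups of genes by mean CPM over the 4 libraries, without offsets (left) and with GC and length offsets (right). The share called higher is largest in the group next to the lowest and smallest in the highest group in both panels, and the share called lower grows with level, up to 28.6% in the highest group with the offsets.

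Promoters of the genes with the largest changes are shown to let a reader see what kind of start they have. Each is the 250 bases before the RefSeq promoter start nearest the gene's outer end (GRCm38.p6), written on the gene's strand. Matches to the motifs searched are in capitals. The windows of Sfrp2, Igdcc4 and Islr lie inside the annotated gene, so the starts used for them are internal ones. The motifs, searched on both strands, were the E-boxes CAGCTG and CACGTG, the GC box GGGCGG, the AP-1 site TGANTCA, the TEAD site GGAATG, the NRF1 site, the TATA box TATAAA and the CArG box. Sfrp2 (chr3:83766071-83766320, plus strand) and Igdcc4 (chr9:65101236-65101485, plus strand) have the highest ranks among genes that rose, and Slco4a1 (chr2:180455995-180456244, plus strand) and Crmp1 (chr5:37241808-37242057, plus strand) among those that fell. Islr (chr9:58158555-58158804, minus strand) and Slc38a7 (chr8:95853492-95853741, minus strand) were added after their values were seen, to show the CAGCTG and the CACGTG E-box.
Sfrp2: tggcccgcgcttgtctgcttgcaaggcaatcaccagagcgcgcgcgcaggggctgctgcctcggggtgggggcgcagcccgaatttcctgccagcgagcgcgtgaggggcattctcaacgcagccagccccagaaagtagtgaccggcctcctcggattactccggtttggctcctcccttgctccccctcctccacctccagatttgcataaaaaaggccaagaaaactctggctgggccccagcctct
Igdcc4: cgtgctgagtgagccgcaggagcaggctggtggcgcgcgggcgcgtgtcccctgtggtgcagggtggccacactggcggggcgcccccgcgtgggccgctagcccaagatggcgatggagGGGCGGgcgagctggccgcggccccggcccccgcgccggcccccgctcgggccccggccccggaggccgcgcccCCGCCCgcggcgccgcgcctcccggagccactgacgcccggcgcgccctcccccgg
Slco4a1: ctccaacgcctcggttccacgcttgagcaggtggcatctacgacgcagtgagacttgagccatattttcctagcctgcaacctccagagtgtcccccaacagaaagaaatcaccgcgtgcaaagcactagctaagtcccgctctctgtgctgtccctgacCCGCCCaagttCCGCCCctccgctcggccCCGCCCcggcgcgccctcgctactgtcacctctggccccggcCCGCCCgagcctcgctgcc
Crmp1: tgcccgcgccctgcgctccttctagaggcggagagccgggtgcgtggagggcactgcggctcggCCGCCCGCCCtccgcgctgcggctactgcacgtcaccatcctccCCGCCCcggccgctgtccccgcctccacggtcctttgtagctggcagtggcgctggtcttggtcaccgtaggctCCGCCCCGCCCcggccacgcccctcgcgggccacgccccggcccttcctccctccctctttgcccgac
Islr: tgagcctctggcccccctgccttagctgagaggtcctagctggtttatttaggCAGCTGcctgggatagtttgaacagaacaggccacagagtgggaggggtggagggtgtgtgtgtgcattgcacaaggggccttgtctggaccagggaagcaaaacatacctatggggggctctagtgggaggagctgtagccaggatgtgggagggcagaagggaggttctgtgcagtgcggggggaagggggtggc
Slc38a7: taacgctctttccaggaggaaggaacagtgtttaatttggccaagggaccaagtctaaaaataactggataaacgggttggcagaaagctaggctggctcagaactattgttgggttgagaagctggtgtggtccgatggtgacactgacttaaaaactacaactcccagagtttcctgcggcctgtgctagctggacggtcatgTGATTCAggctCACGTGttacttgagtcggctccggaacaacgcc

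Sfrp2 had no match in this window, Igdcc4 had 2 GC boxes, Slco4a1 had 4 and Crmp1 had 5. Islr had CAGCTG at 197 bases before the start, and Slc38a7 had an AP-1 site at 45 and CACGTG at 34 bases before it.

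Over the 300 bases from 250 before to 50 after the start, promoters of higher and lower genes differed in their E-boxes and CpG content. A RefSeq promoter was found for 600 of the 801 higher genes, 336 of the 443 lower genes and 9886 of all tested genes. CAGCTG, the E-box preferred by MyoD dimers, was present in 21.2% of promoters of higher genes, 13.1% of lower genes and 14.7% of all. CACGTG, the E-box bound by Myc and Max and by other bHLH-zip factors, was present in 8.17%, 17.3% and 10.4%. With the calls made with offsets these shares were 19.6% and 11.7% for CAGCTG and 8.90% and 13.6% for CACGTG, higher genes given first. For the other motifs the shares in higher, lower and all genes were as follows: GGGCGG 63.2%, 67.9% and 66.0%, TGANTCA 5.33%, 6.25% and 4.77%, GGAATG 14.5%, 10.4% and 11.8%, TATAAA 8.17%, 6.85% and 6.74%, the CArG box 2.17%, 1.79% and 1.33%, and the NRF1 site 1.17%, 0.298% (1 promoter) and 2.14%. With the calls made with offsets the NRF1 site was in 1.08% of higher and 2.49% of lower genes, the opposite order, and GGGCGG was in 67.9% of both. The ratio of observed to expected CpG was at least 0.6 in 55.3% of promoters of higher genes, 75.0% of lower genes and 74.3% of all, while their median GC content was 61.5%, 61.3% and 61.3%. These shares are descriptions with no test, and a match is not a bound site.

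Whether the same genes stand apart from the other SWI/SNF knockdowns was asked with the contrast of Brd9 against the mean of the Baf250A and Baf180 knockdowns on the log2 scale, which shares the Brd9 libraries with the main comparison and takes its spread from all 8 libraries, scramble included. In it 1659 genes were called (13.4%), 1079 higher (8.69%) and 580 lower (4.67%), but 356 without Brd9 replicate 1 and 987 and 989 without scramble replicate 1 and 2. Higher and lower in this paragraph refer to the mean of the other knockdowns, and Brd9 was not compared with each of them alone. Slco4a1 was lower than in the other knockdowns too (-4.17 ± 0.20), as were Car8 (-1.99 ± 0.22), Tax1bp3 (-1.73 ± 0.13), Tnnt2 (-1.399 ± 0.13) and Brd9 itself (-2.37 ± 0.14). Gbp2 (2.58 ± 0.20), Dkk3 (2.16 ± 0.24), Prelp (2.12 ± 0.21), Pax7 (1.93 ± 0.30), Igfbp5 (1.88 ± 0.14) and Islr (1.77 ± 0.13) were higher than in them. For some genes that rose against scramble this contrast was not called: H19 (-0.04 ± 0.12), Lmod1 (0.06 ± 0.14), Dhrs3 (0.07 ± 0.16), Nid2 (0.16 ± 0.11) and Col6a2 (-0.03 ± 0.17), which does not show that these knockdowns act alike on them. The neuronal genes lower than scramble were higher than in the other knockdowns, Nefl by 3.39 ± 0.14, Gap43 by 3.05 ± 0.23 and Stmn4 by 6.69 ± 0.31. This was not particular to neuronal genes, since Xirp1 (2.30 ± 0.22), Wnt7b (2.44 ± 0.33), Dok7 (1.61 ± 0.31) and Igsf5 (1.39 ± 0.18) did the same. In the opposite way, Acta2 (-0.71 ± 0.15) and Col1a2 (-0.42 ± 0.11) rose against scramble but were lower than in the other knockdowns. The Baf250A and Baf180 libraries were not otherwise described here.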

How the data were processed

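Total RNA of 4 groups with 2 libraries each was sequenced on BGISEQ-500, per the labels' protocols. The authors deposited 1 table of estimated counts per gene and library and, as another value, gene length. RSEM, Bowtie2, HISAT2, StringTie, Cufflinks, DESeq2 and the mouse build mm10 are named in the submitters' processing notes. No version, role or strand setting is stated there, so overlapping and antisense genes cannot be told apart. The counts have no molecular identifiers, so intervals cover counting error only. Libraries were grouped by their labels, and 0 sample columns were left unmapped.

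The estimated counts were rounded, filtered with filterByExpr, scaled by TMM and fitted over all 8 libraries with edgeR 4.0.16 (R 4.3.3, limma 3.58.1), using the quasi-likelihood test with Benjamini-Hochberg adjustment. Offsets came from a loess curve (span 0.3) of each library's values on GC content and length. The scripts were tested on simulated data. Alternatives were other scaling, filters, DESeq2 1.42.0, limma-voom, a 1.5-fold threshold, the replicate number as a block, and each library left out. Genes were matched to GENCODE M21 and RefSeq: 24479 of 24573 by identifier, 9 by accession and 85 not at all. A gene's promoter was the RefSeq one whose start lies nearest its outer end.

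The gene lists and the comparison were chosen with earlier results of these data known. Named genes are the SWI/SNF subunits, ranks 7 to 18 by fold change in each direction with a mean of at least 5 CPM (unnamed models and near-identical copies passed over), the 8 most abundant called genes in each direction, up to 4 called genes per list by p and 2 in the other direction, a fixed set of myogenic and cycle genes, and runs of neighbouring genes. A few genes that this rule picks are not reported here.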

Additional observations from a re-analysis of the deposited data

How the results depend on the processing

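Brd9 kept its direction and its call under every alternative in which it was followed, which leaves out the 1.5-fold threshold. The 1244 calls became 2588 with no filter, 2540 with the 4 libraries fitted alone, 3507 with GC and length offsets and 303 against a 1.5-fold threshold, and lay within 1.5 times with other scaling, DESeq2 and limma-voom; DESeq2 called 816 of 1714 genes lower, which leaves 52.4% higher. Without single libraries they ranged from 231 to 1020, and with offsets, chosen after seeing the data, from 1471 to 3046, including 2025 without scramble replicate 1. Differences between replicate 1 and 2 did not run together in the scramble and Brd9 groups (correlation -0.05). Those of Brd9 ran against those of Baf250A (-0.42) and Baf180 (-0.44), and those of Baf250A and Baf180 ran together (0.41). Whether same-numbered libraries share a batch is not stated and was not tested. With the replicate block 721 genes were called, and 2858 with the block and the offsets. Against the other knockdowns the 1659 calls became 2876 with no filter, 3365 with offsets, 1025 with the replicate block and 2837 with both; they were 356 without Brd9 replicate 1, 987 and 989 without a scramble library, 1159 without Brd9 replicate 2, and 2672 to 3096 with offsets and a library left out, including 3079. The GC correlation of -0.29 became 0.0741 with offsets, 0.0717 with the replicate block added, and 0.0476, 0.0598, 0.0703 and 0.0633 with scramble replicate 1 or 2 or Brd9 replicate 1 or 2 left out as well, since the offsets remove that trend. The correlation with level, -0.29, ranged from -0.35 to -0.22 without a library, and was -0.21 with offsets and without scramble replicate 1 or Brd9 replicate 1. Lists with more genes higher than lower numbered 50, and 32 to 52 without a library, and lists with more lower numbered 24, and 6 to 22 without a library (7 without scramble replicate 1, 8 without Brd9 replicate 1), or 4 against the 1.5-fold threshold. With offsets the GC box share of higher genes was 67.9% and the NRF1 share of lower genes 2.49%. Among the genes whose fold change is printed, Myod1 and Pbrm1, neither of them called in the main fit, changed sign under some alternatives. With the offsets Pbrm1 was called lower. SWI/SNF subunits near 0 that are not printed changed sign too. Without a library Myod1 ranged from -0.10 (without Brd9 replicate 2) to 0.25. Pbrm1 was at -0.31 with offsets, also with the replicate block, -0.0453 without Brd9 replicate 1 to 0.35 without Brd9 replicate 2, and -0.34 to -0.26 with offsets and a library left out (-0.34, -0.26, -0.27 and -0.34). Causes not named here were not tested.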
